A study of Homo sapiens with 12 samples.

Results

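Transcription of 40 genes for amino acid synthesis and tRNA charging was measured in T47D cells, a human breast cancer line of luminal type that carries the estrogen receptor. The genes were taken by symbol from a list of ATF4-linked amino acid genes and cytosolic aminoacyl-tRNA synthetases. That list was chosen with earlier results of these data known. All 40 had a row among the 60605 gene IDs of the count table, and all 40 passed the filter on low counts. The assay was PRO-seq, in which RNA polymerases already engaged on DNA extend their transcripts in a nuclear run-on, so that the sequenced RNA reports ongoing transcription and not the stock of mRNA. The 12 libraries formed 6 groups of 2. Of the hormone-starved cells, one group received 1 nM beta estradiol and the other was given 0.1% DMSO vehicle. Of the cells in complete medium, groups received fulvestrant, raloxifene or tamoxifen at 100 nM, and the last was given 0.1% DMSO vehicle. Treatment lasted 1 h after 3 days in the medium. The libraries of a group are numbered 3 and 4 in the labels, which do not say whether they came from separate cultures, so the p-values measure the spread between libraries and that spread may be technical.

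ATF4 is a transcription factor whose protein is made when eIF2 is phosphorylated, for example by the kinase GCN2 when uncharged tRNAs build up. It binds genes for amino acid synthesis, uptake and tRNA charging. The serine pathway (PHGDH, PSAT1, PSPH) makes serine from a glycolytic intermediate, the SHMT enzymes turn serine into glycine, and the carbon released is carried on folate by the MTHFD enzymes towards purines and thymidylate. The synthetases join each amino acid to its tRNA, several of them in a multi-synthetase complex held together by AIMP scaffold proteins.

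Library totals ran from 3682311 to 7856803 counts, so that 1 CPM, the count scaled to library size by the TMM method, stood for a few counts. The 40 genes held 0.222% and 0.220% of all counts in the 2 estradiol libraries, 0.215% in each starved vehicle library, and 0.245% to 0.269% in the 8 libraries from complete medium. The 10 luminal epithelial markers checked were read in every library, except TFF1, which had no count in 1 library. Of 12 markers of other cell types, KRT5 never exceeded 1 count and PTPRC never exceeded 3. Others were read in every library, with COL1A1 at 16 to 23.9 CPM, CD68 at 17.3 to 25.9 CPM and ACTA2 at 20.6 to 30.9 CPM. The luminal marker EPCAM was at 31.9 to 36.6 CPM. As a check of the treatments, GREB1, a standard estrogen-induced gene, was at 1487 and 1410 CPM in estradiol libraries against 329 and 294 CPM in starved vehicle libraries. It was at 586 and 591 CPM with fulvestrant against 1354 and 1266 CPM in complete vehicle libraries. Levels are shares of a library, and neither a change in total transcription nor the number of cells transcribing a gene can be told apart from transcription per cell.

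Per kilobase of RefSeq gene span (GRCh38.p14), the levels in complete vehicle differed widely. ATF4 stood highest at 22.5 ± 1.97 CPM per kb (SD, n = 2) over a span of 2.1 kb. MTHFD2 followed at 6.15 ± 0.240 CPM per kb and AIMP2 at 4.27 ± 0.155 CPM per kb. At the low end were VARS1 at 0.223 ± 0.0306, CTH at 0.227 ± 0.0616 and MTHFD1L at 0.262 ± 0.0435 CPM per kb, whose order lies within their spread. The RefSeq span of ASNS, 76.8 kb, is covered to 99.4% by the readthrough transcript CZ1P-ASNS on the same strand, so that its value of 0.217 ± 0.0344 CPM per kb rests on an uncertain length and its reads cannot be assigned to one of them. Since the counted part of each gene is not stated, short genes with polymerase paused near the start and long genes are not strictly comparable.

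**Figure D1:**
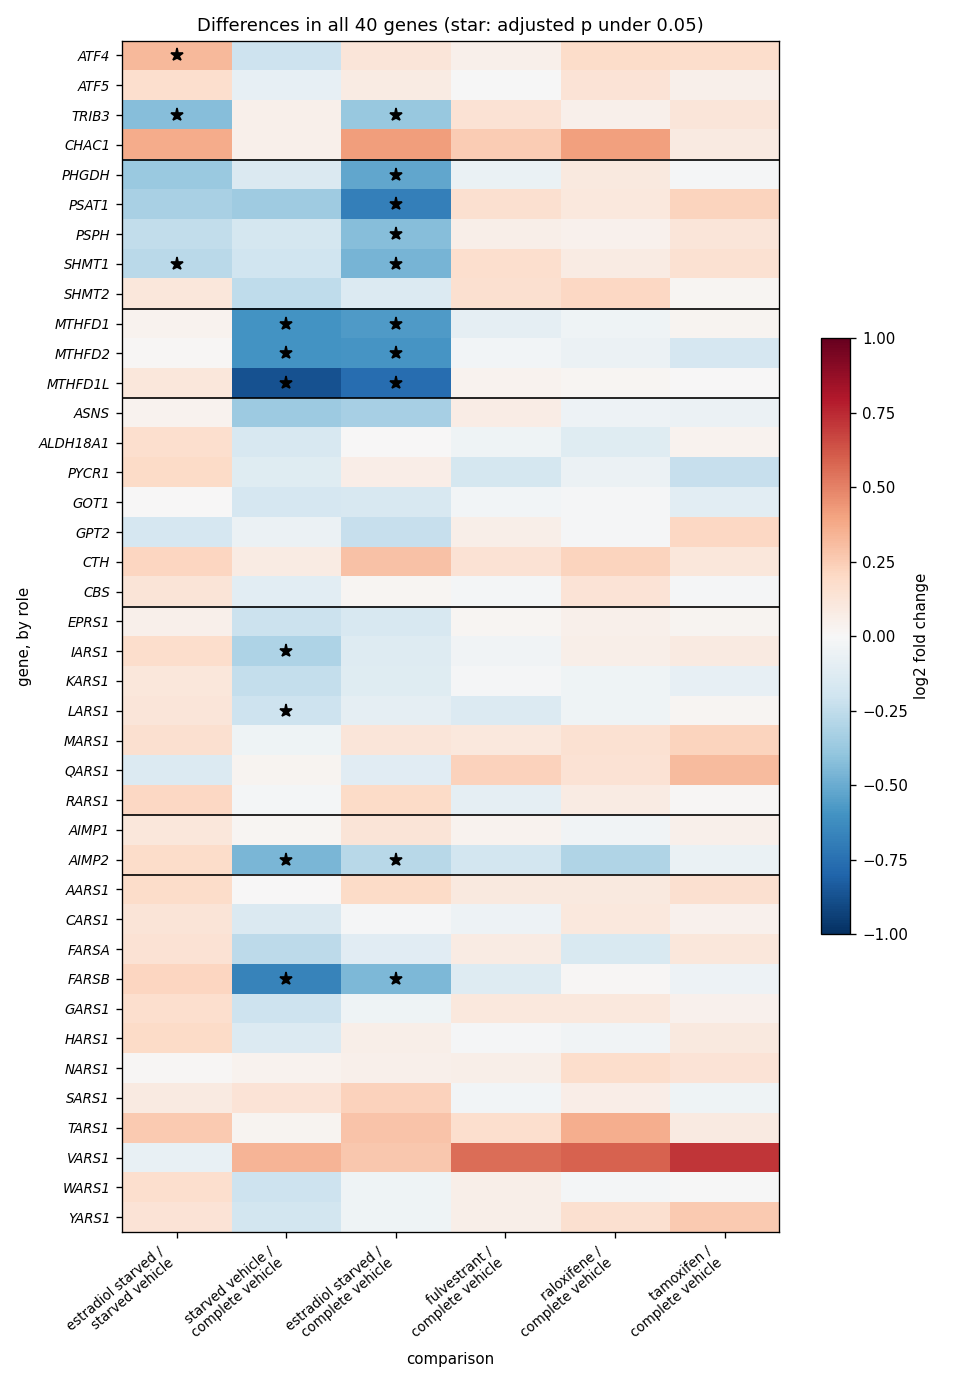
Log2 fold changes of all 40 genes (rows, ordered by role, with lines between roles) in 6 comparisons (columns, each named as numerator / denominator), in colour from -1 to 1. Stars mark an adjusted p under 0.05: 3 genes for estradiol against starved vehicle, 7 for starved against complete vehicle, 10 for estradiol-treated starved cells against complete vehicle, and 0 for each drug.

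Hormone starvation came with lower transcription of the folate one-carbon genes and of a few tRNA charging genes. In starved vehicle cells against complete vehicle cells, 7 of the 40 fell and 0 rose (edgeR quasi-likelihood test, adjusted p under 0.05 over all 23375 genes tested). With the library number as a term of the fit, called the replicate block here, 12 fell and 0 rose. Over all genes tested, 9.67% fell and 9.10% rose in that comparison. The median log2 fold change was -0.17 over the 40 genes and 0.01 over all genes tested, with 30 genes below 0 and 10 above it. The 7 were the folate enzymes MTHFD1, MTHFD2 and MTHFD1L, the synthetases FARSB, IARS1 and LARS1, and the scaffold AIMP2.

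All 3 of the folate one-carbon genes fell with starvation. MTHFD1L, the mitochondrial enzyme that releases formate, was at 34.4 and 32.7 CPM in starved vehicle libraries against 54.7 and 69.2 CPM in complete vehicle libraries, a log2 fold change of -0.87 ± 0.11 (SE, adjusted p = 8.24e-06). MTHFD1, its cytosolic counterpart that takes formate back into the folate cycle, was at 123 and 132 CPM in starved vehicle libraries against 187 and 200.4 CPM in complete vehicle libraries (log2 fold change -0.60 ± 0.09, adjusted p = 4.18e-05). MTHFD2, the mitochondrial dehydrogenase of the same route, was at 79.2 and 74.7 CPM in starved vehicle libraries against 114 and 120.2 CPM in complete vehicle libraries (log2 fold change -0.60 ± 0.10, adjusted p = 0.000106). In each of them both starved libraries lay below both complete vehicle libraries, and each call held under all 10 alternative settings, such as DESeq2 or leaving out any 1 library.

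The folate genes were as low in starved cells after 1 h of estradiol, within the intervals given. MTHFD1L was at 35.2 and 37.6 CPM in estradiol libraries, MTHFD1 at 133 and 128 CPM, and MTHFD2 at 77.6 CPM in both. Against starved vehicle their log2 fold changes were 0.11 (95% interval -0.14 to 0.37), 0.04 (-0.16 to 0.23) and 0.01 (-0.20 to 0.22), and 0 of the 3 passed the test. Against complete vehicle, which differs in both medium and estradiol, they fell by 0.76 ± 0.12, 0.57 ± 0.09 and 0.59 ± 0.10 on the log2 scale (adjusted p = 6.72e-05, 0.000123 and 0.000204). Their spans are 236.2 kb, 71.7 kb and 19.0 kb in that order, and the counted part of each is not stated. How far along a long gene a change could spread within 1 h was not tested, so an early response may be understated.

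Sequence upstream of these genes was searched for 3 motifs within 250 bases before the RefSeq start (GRCh38.p14), on both strands. RefSeq promoter entries matched 33 of the 40 genes, the others being PSPH, SHMT2, PYCR1, GPT2, LARS1, VARS1 and YARS1. The core of the C/EBP-ATF response element that ATF4 binds with a partner, TGATGNAA, was found in 6 of the 33 (18.2%: CHAC1, MTHFD1L, ASNS, GOT1, IARS1 and AARS1), against 3.19% of 27303 promoters. Since part of the genes were listed as ATF4-linked, this share is not independent of how they were chosen. The E-box CACGTG, to which MYC and related proteins bind, was found in 5 (15.2%: ATF4, MTHFD1, MTHFD1L, ALDH18A1 and IARS1), against 6.49% of promoters. The 27303 promoters were not limited to genes transcribed in these cells, while the 33 genes all passed the filter on low counts. The shares are therefore not matched for transcription or base composition. The full estrogen response element, GGTCA and TGACC with 3 bases between them, was found in 0 of the 33 and in 0.044% of promoters. At so low a share the 0 does not set these genes apart, and sequence beyond the 250 bases was not searched. The stretches shown belong to 2 folate genes and a synthetase that fell with starvation and to ASNS, a textbook ATF4 target that did not pass any test here. They were picked from the genes with a match. Neither the response element nor the E-box was found in MTHFD2, FARSB or AIMP2, which fell too. CHAC1, GOT1 and AARS1 hold the response element, and ATF4 and ALDH18A1 the E-box, without a call for starvation. Whether a motif goes with the fall was not tested. Capitals mark the motif, read in the direction of the gene, and TTGCATCA is the ATF motif on the other strand.
MTHFD1L response element (chr6:150866317-150866404, plus strand): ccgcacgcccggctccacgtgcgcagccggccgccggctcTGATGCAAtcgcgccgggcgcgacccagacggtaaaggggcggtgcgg
MTHFD1L E-box (chr6:150866292-150866377, plus strand): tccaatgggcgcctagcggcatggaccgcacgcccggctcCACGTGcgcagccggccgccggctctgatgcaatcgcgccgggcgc
MTHFD1 E-box (chr14:64388298-64388352, plus strand): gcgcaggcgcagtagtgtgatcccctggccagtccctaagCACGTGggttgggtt
IARS1 response element (chr9:92293698-92293750, minus strand): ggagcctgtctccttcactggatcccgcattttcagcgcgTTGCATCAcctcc
ASNS response element (chr7:97872429-97872516, minus strand): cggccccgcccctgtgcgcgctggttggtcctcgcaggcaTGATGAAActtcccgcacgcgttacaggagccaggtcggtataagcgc
In MTHFD1L the E-box begins 154 bases and the response element 129 bases before the start in the promoter table. That start is the outer end of the gene span for 28 of the 33 genes. It lies inside the span for the other 5, by 784 bases for MTHFD1L and 56.0 kb for ASNS. A match describes these letters and not a bound site.

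Among the tRNA charging genes, starvation was followed by a fall in 4 of 21, where 9.67% of all genes tested fell. FARSB, the beta subunit of phenylalanyl-tRNA synthetase, was at 73.3 and 68.7 CPM in starved vehicle libraries against 114 and 112 CPM in complete vehicle libraries (log2 fold change -0.66 ± 0.08, adjusted p = 1.84e-06). Its partner subunit FARSA was at 25.9 and 22.1 CPM in starved vehicle libraries against 28.0 and 29.7 CPM in complete vehicle libraries and did not pass the test. AIMP2 was at 45.8 and 44.9 CPM in starved vehicle libraries against 60.8 and 64.0 CPM in complete vehicle libraries (log2 fold change -0.46 ± 0.09, adjusted p = 0.000626). The calls of FARSB and AIMP2 held under all 10 alternatives. IARS1, the isoleucyl-tRNA synthetase, was at 119.7 and 119.9 CPM in starved vehicle libraries against 141.5 and 155 CPM in complete vehicle libraries (log2 fold change -0.31 ± 0.08, adjusted p = 0.00949). LARS1, the leucyl-tRNA synthetase, was at 138 and 134 CPM in starved vehicle libraries against 157 in both complete vehicle libraries (log2 fold change -0.21 ± 0.07, adjusted p = 0.0358). Without complete vehicle library 4 the adjusted p of IARS1 was 0.157, without starved vehicle library 3 it was 0.0804 and without library 4 it was 0.0721. That of LARS1 lay between 0.127 and 0.234 when any 1 of the 4 libraries was left out, and was 0.0519 with library totals in place of TMM scaling, 0.0990 with no filter on low counts and 0.157 with DESeq2. EPRS1 and KARS1, the glutamyl-prolyl and lysyl-tRNA synthetases of the same complex, were at 117 and 127 CPM and at 57.0 and 56.0 CPM in starved vehicle libraries against 143 and 140.3 CPM and 66.5 and 66.8 CPM in complete vehicle libraries, just short of the threshold (adjusted p = 0.0659 and 0.0713). MARS1, QARS1 and RARS1 of the complex lay between -0.04 and 0.02 on the log2 scale. With the replicate block, EPRS1, KARS1, GARS1 and WARS1 fell too (adjusted p = 0.00517, 0.0273, 0.0227 and 0.0432). Over the 21 genes the median log2 fold change was -0.14, with 14 below 0. It was -0.07 without complete vehicle library 4 and -0.09 without starved vehicle library 3. Without complete vehicle library 3 it was -0.18, and without starved vehicle library 4 it was -0.15.

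Several of these genes share sequence with a neighbour, and the strand setting of the counting is not stated. ZBTB25 overlaps 15.2% of MTHFD1 on the other strand and had a log2 fold change of -0.17 ± 0.07 in starved against complete vehicle (adjusted p = 0.101). SLC4A5 overlaps 6.99% of MTHFD2 and was at 0.14 ± 0.12, and EIF2AK1 overlaps 10.9% of AIMP2 and was at -0.03 ± 0.07. None of these 3 neighbours passed the test in that comparison. In estradiol-treated starved cells against complete vehicle, ZBTB25 fell by 0.24 ± 0.07 (adjusted p = 0.0257), as MTHFD1 did. SMCR8 shares 184 bases, 0.516% of SHMT1, on the other strand, and fell by 0.37 ± 0.06 with starvation (adjusted p = 0.000269) and by 0.22 ± 0.06 in estradiol-treated starved cells against complete vehicle (adjusted p = 0.0232). MTHFD1L lies on chromosome 6 and ends 554.8 kb before the start of ESR1, the estrogen receptor gene. ESR1 fell by 0.96 ± 0.04 on the log2 scale in starved vehicle against complete vehicle, and by 0.52 ± 0.04 in estradiol-treated starved cells against complete vehicle. The summed level of the 10 luminal markers, ESR1 and the estrogen-responsive PGR among them, was 3825 to 3855 CPM in starved vehicle libraries against 5738 to 5857 CPM in complete vehicle libraries. That of the 12 markers of other cell types was 82.9 to 86.1 CPM in starved vehicle libraries against 72.4 to 72.7 CPM in complete vehicle libraries. The part of either in these results was not tested.

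**Figure D2:**
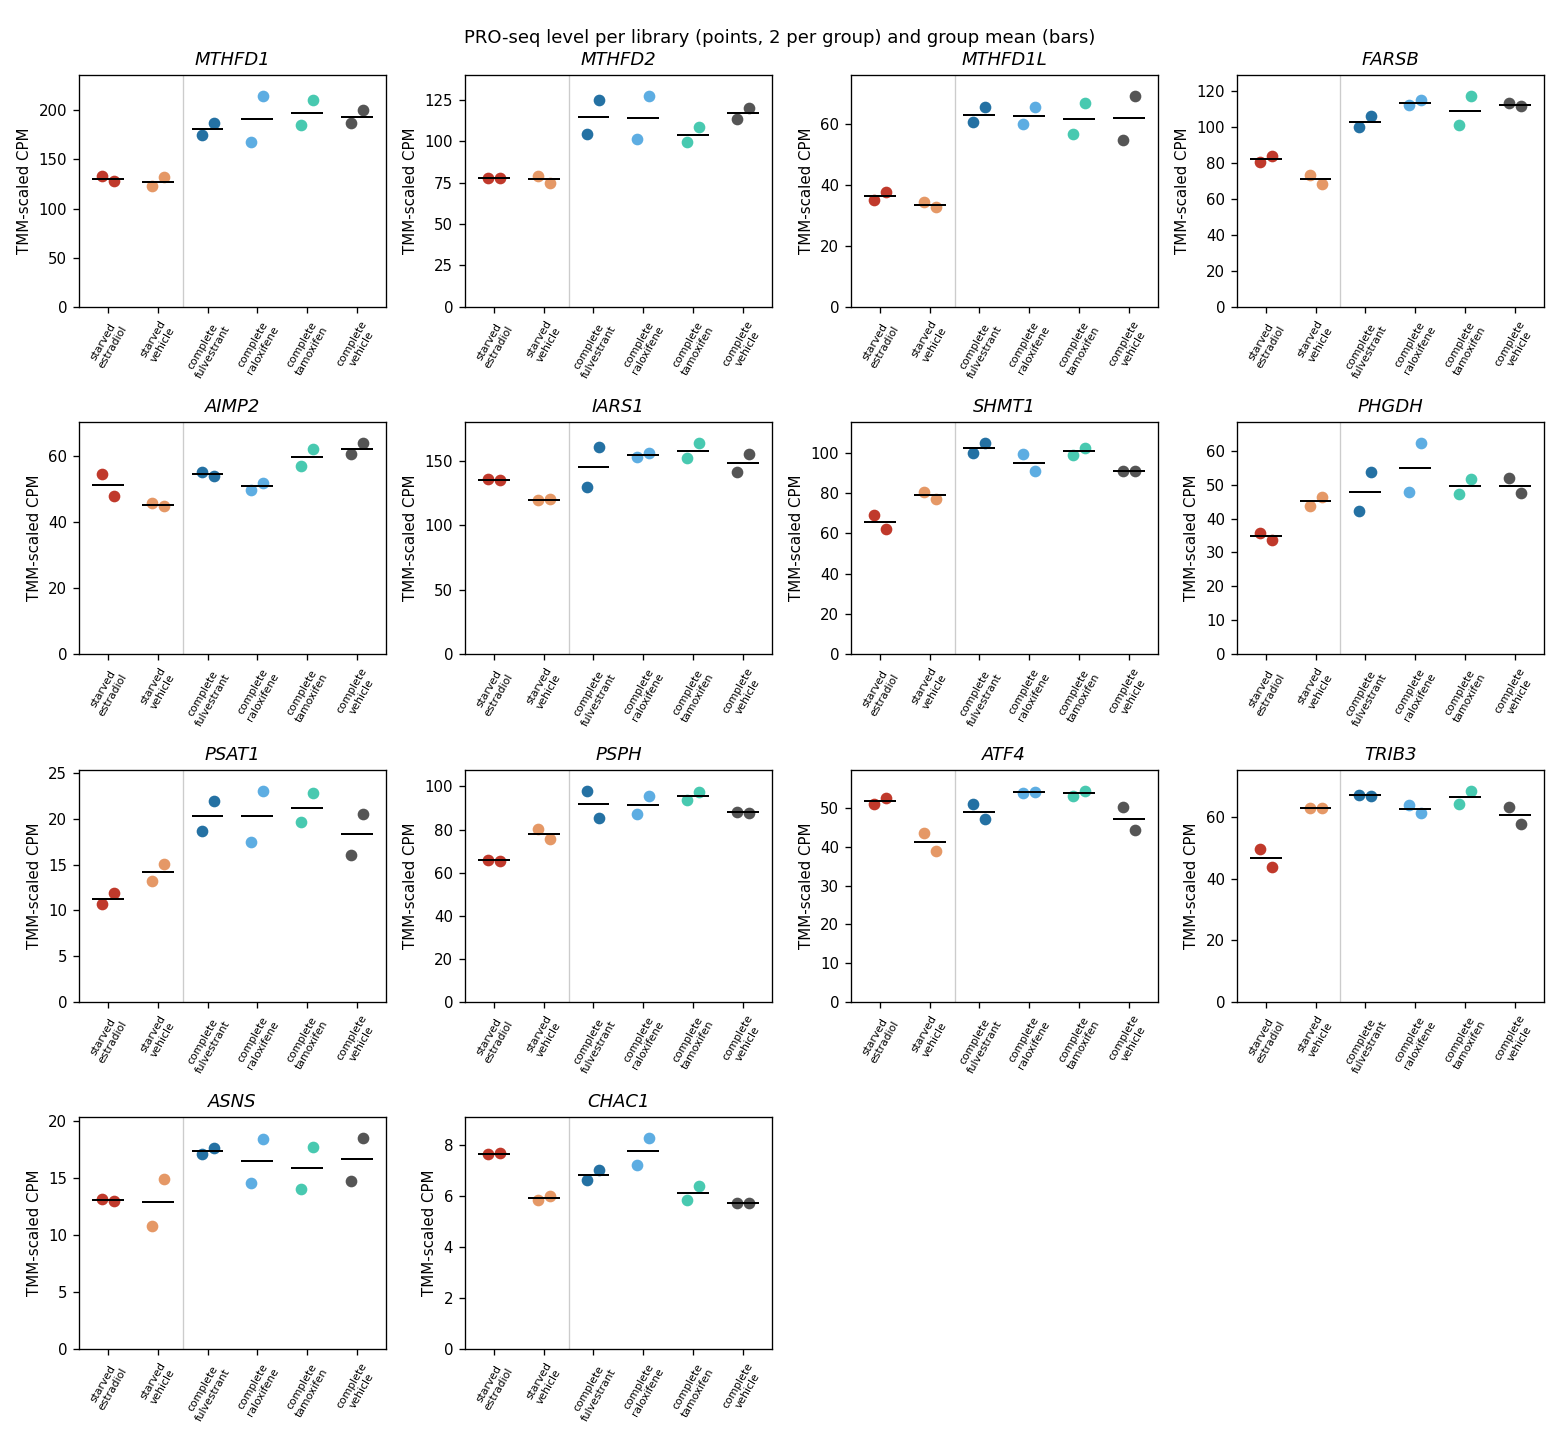
Level of 14 genes in TMM-scaled CPM (vertical axis, from 0) in each of the 6 groups (horizontal axis); points are libraries, 2 per group, and bars are group means. MTHFD1, MTHFD2 and MTHFD1L are low in all 4 starved libraries, while PHGDH, PSPH, SHMT1 and TRIB3 are lowest in the 2 estradiol libraries.

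Of the 5 serine and glycine genes, all but SHMT2 were lowest in estradiol-treated starved cells. Against complete vehicle, 4 of the 5 fell and 0 rose, as part of 10 of all 40 genes that fell and 0 that rose. Over all genes tested 8.11% fell and 8.09% rose in this comparison. The median log2 fold change was -0.07 over the 40 genes and 0.00 over all genes. The median over the 40 was -0.14 without estradiol library 3 and -0.03 with no filter on low counts. With the replicate block 10 fell and 2 rose, AARS1 (adjusted p = 0.0142) and TARS1 (adjusted p = 0.0354). The other 6 of the 10 were the 3 folate genes, FARSB, AIMP2 and TRIB3.

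PHGDH, the first enzyme of serine synthesis, was at 35.8 and 33.8 CPM in estradiol libraries, 43.8 and 46.3 CPM in starved vehicle libraries, and 51.9 and 47.5 CPM in complete vehicle libraries. PSAT1, the aminotransferase of the second step, was at 10.7 and 11.9 CPM in estradiol libraries, 13.3 and 15.1 CPM in starved vehicle libraries, and 16.1 and 20.6 CPM in complete vehicle libraries. PSPH, the phosphatase that releases serine, was at 65.6 CPM in both estradiol libraries, 80.5 and 75.4 CPM in starved vehicle libraries, and 88.3 and 87.6 CPM in complete vehicle libraries. For all 3 the means of the 3 groups lay in the same order, with estradiol lowest and complete vehicle highest. How many of all genes tested had this order was not counted. SHMT1, the cytosolic enzyme that makes glycine from serine, had that order too, at 68.9 and 61.9 CPM in estradiol libraries, 80.6 and 77.0 CPM in starved vehicle libraries, and 90.8 and 90.6 CPM in complete vehicle libraries.

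Between the estradiol-treated starved cells and complete vehicle cells the 4 fell by 0.52 ± 0.13 (PHGDH), 0.68 ± 0.18 (PSAT1), 0.42 ± 0.08 (PSPH) and 0.47 ± 0.08 (SHMT1) on the log2 scale, with adjusted p of 0.0072, 0.0112, 0.000898 and 0.000179. The calls of PSPH and SHMT1 held under all 10 alternatives. The adjusted p of PHGDH was 0.125 without complete vehicle library 3 and 0.0655 without estradiol library 4. That of PSAT1 was 0.160 without complete vehicle library 4, 0.118 without estradiol library 3 and 0.0640 with DESeq2. Neither step alone was called for PHGDH, PSAT1 or PSPH in the fit without the replicate block. Estradiol against starved vehicle gave log2 fold changes of -0.37 ± 0.13, -0.33 ± 0.18 and -0.25 ± 0.08 (adjusted p = 0.0771, 0.358 and 0.0615), and starved against complete vehicle gave -0.15 ± 0.12, -0.36 ± 0.17 and -0.17 ± 0.08 (adjusted p = 0.466, 0.158 and 0.142). These 2 comparisons share the starved vehicle libraries. With the block, PHGDH and PSPH fell with estradiol against starved vehicle (adjusted p = 0.0103 and 0.0169), and SHMT1 fell with starvation (adjusted p = 0.0256). SHMT2, the mitochondrial counterpart, was at 13.2 and 14.1 CPM in estradiol libraries, 13.1 and 11.99 CPM in starved vehicle libraries, and 13.4 and 16.9 CPM in complete vehicle libraries. Its estradiol libraries lay above its starved vehicle libraries, and against complete vehicle its log2 fold change was -0.14 with an interval from -0.53 to 0.26.

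FARSB and AIMP2 remained below complete vehicle with estradiol. FARSB was at 80.9 and 84.0 CPM in estradiol libraries and fell by 0.45 ± 0.08 against complete vehicle (adjusted p = 0.000251). AIMP2 was at 54.6 and 48.03 CPM in estradiol libraries and fell by 0.27 ± 0.09 against complete vehicle (adjusted p = 0.0367). The call of AIMP2 was lost without complete vehicle library 3 (adjusted p = 0.11), complete vehicle library 4 (0.217) or estradiol library 4 (0.309), with no filter on low counts (0.153) and with DESeq2 (0.245). Set against starved vehicle instead, FARSB gave 0.21 ± 0.08 and AIMP2 0.18 ± 0.09 in estradiol cells, and neither passed the test (adjusted p = 0.115 and 0.267).

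**Figure D3:**
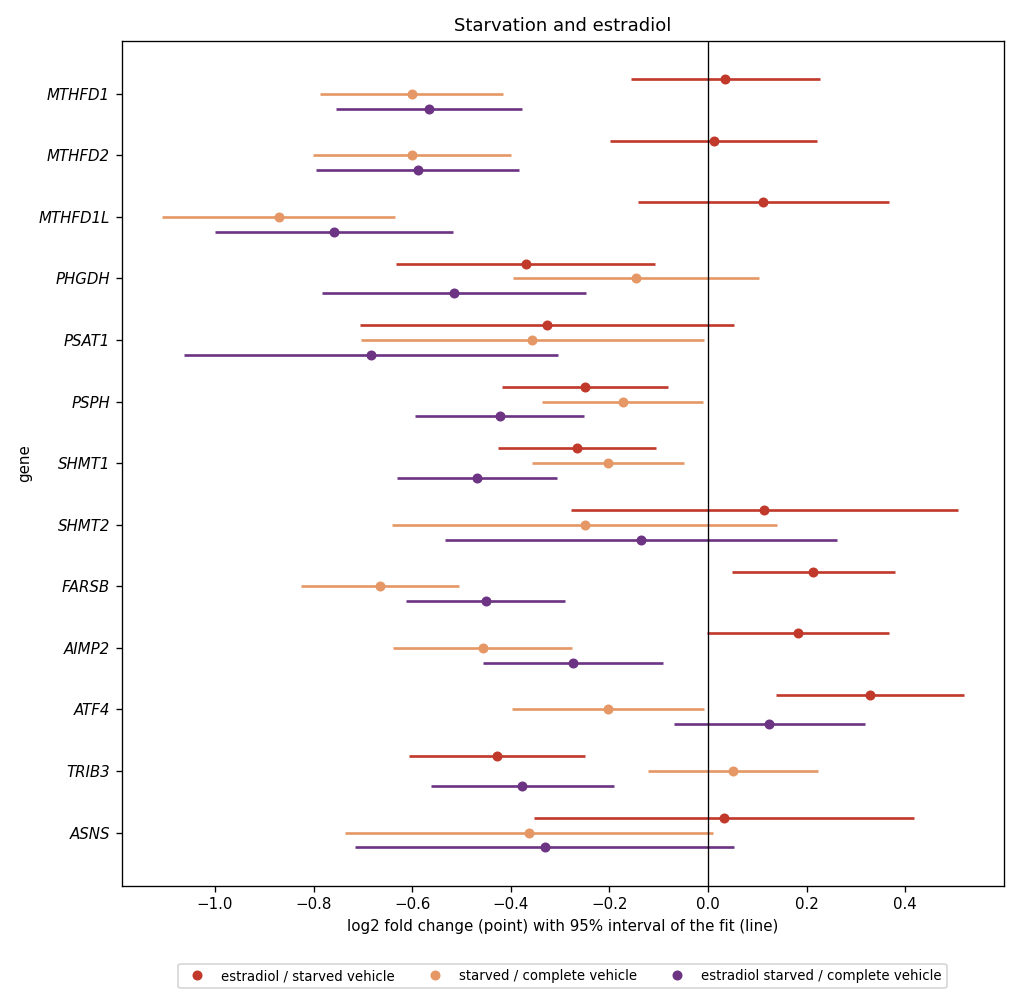
Log2 fold change (point) with the 95% interval of the fit (line) for 13 genes in the 3 comparisons among estradiol-treated starved, starved vehicle and complete vehicle cells. The folate genes lie near 0 for estradiol against starved vehicle and between -0.57 and -0.87 for the others, whereas PHGDH, PSAT1, PSPH and SHMT1 lie below 0 in all 3.

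One hour of estradiol in starved cells changed 3 of the 40 genes: ATF4 rose, and TRIB3 and SHMT1 fell. With the replicate block 4 rose and 4 fell. Over all genes tested 5.04% rose and 3.74% fell. For a list of 40 genes, the counts without the block were near these shares. Of all calls in this comparison 57.4% were higher, and 45.7% with library totals in place of TMM scaling. The median log2 fold change was 0.12 over the 40 genes and -0.01 over all genes, with 32 of the 40 above 0.

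ATF4, the transcription factor itself, was at 51.2 and 52.6 CPM in estradiol libraries against 43.5 and 39.0 CPM in starved vehicle libraries (log2 fold change 0.33 ± 0.09, adjusted p = 0.0262). TRIB3, a pseudokinase that ATF4 induces and that restrains it in return, was at 49.6 and 43.8 CPM in estradiol libraries against 63.0 and 63.1 CPM in starved vehicle libraries (log2 fold change -0.43 ± 0.09, adjusted p = 0.00174). The pair differed in opposite directions, with no overlap of libraries in either. SHMT1 fell by 0.27 ± 0.08 on the log2 scale (adjusted p = 0.0323).

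Each of these 3 calls was lost without a single library. Without estradiol library 4 the adjusted p was 0.0545 for TRIB3, 0.159 for ATF4 and 0.33 for SHMT1. Without estradiol library 3 that of ATF4 was 0.0999. Without starved vehicle library 4 it was 0.278 for ATF4 and 0.105 for SHMT1, and without starved vehicle library 3 it was 0.257 for SHMT1. DESeq2 gave 0.194 for ATF4 and 0.234 for SHMT1, and with no filter on low counts that of SHMT1 was 0.0505. Against complete vehicle, TRIB3 also fell in estradiol-treated starved cells, by 0.38 ± 0.09 on the log2 scale (adjusted p = 0.00471). That call was lost without complete vehicle library 3 (0.123), without estradiol library 4 (0.0844) and with DESeq2 (0.0517). ATF4 was at 50.3 and 44.4 CPM in complete vehicle libraries, and estradiol-treated starved cells stood 0.12 above that on the log2 scale with an interval from -0.07 to 0.32.

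The other ATF4-linked regulators gave no call with estradiol. CHAC1, which degrades glutathione, had only 28 to 57 counts per library. It was at 7.62 and 7.67 CPM in estradiol libraries against 5.82 and 5.99 CPM in starved vehicle libraries, a log2 fold change of 0.37 with an interval from -0.05 to 0.79 (adjusted p = 0.364). ASNS, the asparagine synthetase, was at 13.22 and 12.97 CPM in estradiol libraries, 10.8 and 14.9 CPM in starved vehicle libraries, and 14.8 and 18.5 CPM in complete vehicle libraries. Its estradiol libraries lay between the 2 starved vehicle libraries, and its log2 fold change was 0.03 with an interval from -0.35 to 0.42. ATF5, a relative of ATF4, was at 15.7 and 15.3 CPM in estradiol libraries against 14.2 and 13.4 CPM in starved vehicle libraries (adjusted p = 0.63).

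The genes of amino acid synthesis outside the serine route gave no call. Of these 7 genes, ASNS included, 0 passed the test in any of the 9 comparisons. ALDH18A1 and PYCR1, which make proline from glutamate, ran from 72.5 to 88.1 CPM and from 15.6 to 21.7 CPM over the 12 libraries. For ALDH18A1 the estradiol libraries, at 86.2 and 81.8 CPM, lay above the starved vehicle libraries, at 77.1 and 72.5 CPM, and on either side of the complete vehicle libraries, at 83.3 and 84.3 CPM (log2 fold change 0.17 ± 0.07 against starved vehicle, adjusted p = 0.203). GOT1 and GPT2, the transaminases that make aspartate and alanine, ran from 48.4 to 61.7 CPM and from 23.6 to 33.9 CPM. CTH and CBS, which make cysteine from homocysteine, were low, at 5.25 to 8.40 CPM and 7.60 to 11.7 CPM, and had the widest 95% intervals of the 7 in each comparison with a vehicle.

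Of the 21 tRNA charging genes, 0 passed the test with estradiol, and with the replicate block AARS1, RARS1 and FARSB rose (adjusted p = 0.0195, 0.0296 and 0.04). Their log2 fold changes ran from -0.14 to 0.26 with a median of 0.14, and 19 of them lay above 0. That count was 18 with library totals in place of TMM scaling and 19 with size factors by the RLE method. It was 17 without estradiol library 3 and 18 without starved vehicle library 4. Over all genes, 11123 of the 23375 tested lay above 0. In the multi-synthetase complex, IARS1 was at 136 and 135 CPM in estradiol libraries against 119.7 and 119.9 CPM in starved vehicle libraries (log2 fold change 0.18 ± 0.08, adjusted p = 0.231). Its estradiol libraries thus lay above both starved vehicle libraries and below both complete vehicle libraries. AARS1, the alanyl-tRNA synthetase, was at 161 and 163 CPM in estradiol libraries against 143 and 142 CPM in starved vehicle libraries (log2 fold change 0.19 ± 0.08, adjusted p = 0.166). RARS1, the arginyl-tRNA synthetase, was at 94.7 and 100.3 CPM in estradiol libraries against 81.3 and 87.1 CPM in starved vehicle libraries (log2 fold change 0.21 ± 0.08, adjusted p = 0.156). In both of these genes the estradiol libraries lay above the starved vehicle libraries, by less than the test could call. AARS1 had no such gap with starvation, at 143 and 142 CPM in starved vehicle libraries against 138 and 146 CPM in complete vehicle libraries. In estradiol-treated starved cells against complete vehicle, the difference on the log2 scale was 0.29 ± 0.13 for TARS1, 0.27 ± 0.28 for VARS1, 0.23 ± 0.11 for SARS1 (the seryl-tRNA synthetase) and 0.19 ± 0.08 for AARS1, which were the 4 highest of the 21, and 0 of the 4 passed the test (adjusted p = 0.153, 0.609, 0.196 and 0.108). VARS1 was the one below 0 with estradiol outside the complex, at 6.07 and 3.65 CPM in estradiol libraries against 5.01 and 5.41 CPM in starved vehicle libraries, and QARS1, the glutaminyl-tRNA synthetase, the one within it, at 23.9 and 22.6 CPM in estradiol libraries against 25.6 and 25.7 CPM in starved vehicle libraries. The second scaffold, AIMP1, was at 38.1 and 43.6 CPM in estradiol libraries, 38.1 and 37.3 CPM in starved vehicle libraries and 35.5 and 39.3 CPM in complete vehicle libraries, and gave no call in any comparison. The synthetases for glycine (GARS1, 81.9 to 120.2 CPM), tyrosine (YARS1, 59.3 to 85.9 CPM), tryptophan (WARS1, 58.8 to 76.8 CPM), histidine (HARS1, 49.4 to 65.1 CPM), cysteine (CARS1, 29.2 to 37.8 CPM) and asparagine (NARS1, 28.6 to 35.2 CPM) gave no call in any comparison without the replicate block, over the ranges of the 12 libraries given.

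Among genes around the pathway, amino acid transporters, ATF4 targets and amino acid and folate genes held calls with estradiol, where 5.04% of all genes tested rose and 3.74% fell. In estradiol against starved vehicle, 3 of 10 amino acid transporter genes rose and 0 fell: SLC7A5, the large neutral amino acid transporter, by 0.92 ± 0.08, SLC1A5, a glutamine transporter, by 0.44 ± 0.10 and SLC7A1, a cationic amino acid transporter, by 0.37 ± 0.11. SLC7A5 was at 536 and 458 CPM in estradiol libraries against 267 and 258 CPM in starved vehicle libraries. Of 19 other ATF4 target genes tested, 3 rose and 1 fell, with STC2, a secreted glycoprotein, up by 1.12 ± 0.08, ATF3 up by 0.46 ± 0.07 and NUPR1 at -0.28 ± 0.09. Of 18 other amino acid and folate genes, 3 rose and 1 fell, with GLUL (glutamine synthetase) up by 0.45 ± 0.07 and SLC25A32, the mitochondrial folate carrier, up by 0.49 ± 0.11. Of 16 mitochondrial synthetase genes tested, EARS2 rose and 0 fell, and of 12 eIF2 kinase and eIF2B genes, EIF2S1 rose and 0 fell, which for such small lists is near the share over all genes. Of the 3 other cytosolic synthetase genes, 0 passed the test. All these lists were chosen with earlier results of these data known, so their shares are not independent of that choice.

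With starvation, most of these lists held genes that rose and genes that fell, where 9.10% of all genes tested rose and 9.67% fell. As above, the lists were chosen with earlier results of these data known. In starved against complete vehicle, 6 of the 19 other ATF4 targets rose and 4 fell, with NUPR1 up by 1.07 ± 0.10, JDP2 up by 0.67 ± 0.08 and STC2 at -1.20 ± 0.08. The other amino acid and folate genes gave 1 that rose and 5 that fell among 18, with TYMS (thymidylate synthase, a user of folate carbon) at -0.67 ± 0.12 and MTR (methionine synthase) at -0.25 ± 0.06. Of 10 transporter genes 1 rose and 2 fell, with SLC7A1 at -0.60 ± 0.11, SLC38A1 at 0.36 ± 0.08 and SLC3A2 at -0.20 ± 0.06. Of 16 mitochondrial synthetase genes 4 fell and 0 rose, and of 12 eIF2 kinase and eIF2B genes 3 fell, GCN1 the most clearly at -0.29 ± 0.07, and 1 rose. In estradiol-treated starved cells against complete vehicle, 8 of 19 other ATF4 targets rose and 3 fell, and 4 of 10 transporter genes rose and 0 fell, where 8.09% of all genes tested rose and 8.11% fell, with SLC7A5 up by 1.00 ± 0.08 and ATF3 up by 0.80 ± 0.08. DDIT3, which shares 65 bases with MARS1 on the other strand, rose there by 0.47 ± 0.08, while MARS1, the methionyl-tRNA synthetase, was at 105 and 96.8 CPM in estradiol libraries against 90.5 and 95.5 CPM in complete vehicle libraries and did not pass the test.

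The 3 antiestrogens, given for 1 h in complete medium, gave no call among the 40 genes. Fulvestrant, a steroid derived from estradiol, both blocks the receptor and leads to its breakdown, while raloxifene and tamoxifen are nonsteroidal modulators of it. Of all genes tested 1.16% were called with fulvestrant, 0.569% with raloxifene and 0.0513% with tamoxifen, all against complete vehicle. Of the 40, 0 were called with each, 2, 3 and 4 had an unadjusted p under 0.05 in that order, and DESeq2 also called 0. With the replicate block, TARS1 rose with raloxifene, by 0.38 on the log2 scale (adjusted p = 0.0271), and 0 were called with the other drugs. The medians over the 40 were 0.04, 0.06 and 0.05 on the log2 scale and rested on single libraries. Leaving out 1 library, that for fulvestrant was -0.02 without complete vehicle library 3 and 0.09 without fulvestrant library 3. That for raloxifene was 0.00 without complete vehicle library 3, 0.01 without raloxifene library 4 and 0.12 without raloxifene library 3. That for tamoxifen was 0.03 and 0.09 without complete vehicle library 3 or 4, and 0.12 and -0.000721 without tamoxifen library 3 or 4. Without fulvestrant library 4 that drug's median was 0.01. GREB1 and MYC, in contrast, fell by 1.15 ± 0.05 and 1.13 ± 0.10 with fulvestrant and by 0.47 ± 0.05 and 0.68 ± 0.10 with raloxifene. With tamoxifen they were at -0.25 ± 0.05 and -0.31 ± 0.09 and did not pass the test (adjusted p = 0.0975 and 0.466).

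The intervals limit how large a change could have gone unseen. The 95% interval lay within 0.5 log2 units on either side of 0 for 35 of 40 genes with fulvestrant, 34 with raloxifene and 34 with tamoxifen, and within 1 log2 unit for all but VARS1 with each drug. MTHFD1L was at 60.7 and 65.4 CPM with fulvestrant, 60.1 and 65.5 CPM with raloxifene and 56.8 and 66.8 CPM with tamoxifen against 54.7 and 69.2 CPM in complete vehicle libraries. All 6 drug libraries lay between the 2 vehicle libraries. Over its span of 236.2 kb a response within 1 h may be understated, which was not tested. ATF4 was at 51.0 and 47.1 CPM with fulvestrant, 54.0 and 54.2 CPM with raloxifene and 53.1 and 54.5 CPM with tamoxifen against 50.3 and 44.4 CPM in complete vehicle libraries, and its log2 fold changes were 0.05 (interval -0.15 to 0.24), 0.19 (-0.01 to 0.38) and 0.18 (-0.01 to 0.37).

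The genes that fell with starvation gave no call with the drugs, and those with full values are given by library. MTHFD1 was at 175 and 187 CPM with fulvestrant, 168 and 215 CPM with raloxifene and 185 and 210.1 CPM with tamoxifen against 187 and 200.4 CPM in complete vehicle libraries. MTHFD2 was at 104 and 125 CPM with fulvestrant, 101 and 127 CPM with raloxifene and 99.3 and 108 CPM with tamoxifen against 114 and 120.2 CPM in complete vehicle libraries. FARSB was at 100.1 and 106 CPM with fulvestrant, 112 and 115 CPM with raloxifene and 101 and 117 CPM with tamoxifen against 114 and 112 CPM in complete vehicle libraries. In these 3 genes, taken from those that fell with starvation, every drug library lay above all 4 starved libraries. Over all genes tested that separation was not counted. Against complete vehicle, the log2 fold changes of the 3 genes were lowest for MTHFD2 with tamoxifen, at -0.17 (interval -0.37 to 0.02). They were highest for MTHFD1 with tamoxifen, at 0.03 (interval -0.15 to 0.21). AIMP2, IARS1 and LARS1, which fell with starvation too, lacked that separation. AIMP2 was at 49.7 and 52.0 CPM with raloxifene against 54.6 CPM in estradiol library 3. In fulvestrant library 3, IARS1 was at 129.5 CPM against 136 CPM in estradiol library 3. LARS1 was at 135 CPM there against 138 CPM in starved vehicle library 3.

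The serine and glycine genes, TRIB3, CHAC1 and IARS1 gave no call with the drugs either. SHMT1 was at 99.8 and 105 CPM with fulvestrant, 99.2 and 90.8 CPM with raloxifene and 98.8 and 102 CPM with tamoxifen against 90.8 and 90.6 CPM in complete vehicle libraries. PHGDH was at 42.2 and 53.6 CPM with fulvestrant, 47.8 and 62.2 CPM with raloxifene and 47.3 and 51.7 CPM with tamoxifen against 51.9 and 47.5 CPM in complete vehicle libraries. PSAT1 was at 18.7 and 21.9 CPM with fulvestrant, 17.5 and 23.1 CPM with raloxifene and 19.6 and 22.8 CPM with tamoxifen against 16.1 and 20.6 CPM in complete vehicle libraries. In PHGDH the 2 raloxifene libraries lay farther apart than any drug's mean lay from that of vehicle. PSPH was at 98.0 and 85.2 CPM with fulvestrant, 87.2 and 95.7 CPM with raloxifene and 93.7 and 97.3 CPM with tamoxifen against 88.3 and 87.6 CPM in complete vehicle libraries. TRIB3 was at 67.2 and 67.1 CPM with fulvestrant, 64.0 and 61.3 CPM with raloxifene and 64.2 and 68.6 CPM with tamoxifen against 63.5 and 57.8 CPM in complete vehicle libraries. CHAC1 was at 6.62 and 7.01 CPM with fulvestrant, 7.22 and 8.25 CPM with raloxifene and 5.83 and 6.38 CPM with tamoxifen against 5.72 and 5.70 CPM in complete vehicle libraries. All 6 drug libraries of CHAC1 lay above both vehicle libraries, at adjusted p of 0.92, 0.596 and 0.978 for the 3 drugs in that order. IARS1 was at 129.5 and 160.4 CPM with fulvestrant, 152.5 and 156 CPM with raloxifene and 152 and 163 CPM with tamoxifen against 141.5 and 155 CPM in complete vehicle libraries.

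An unadjusted p under 0.05 was found for SHMT1 and AIMP2 with fulvestrant, for AIMP2, TARS1 and VARS1 with raloxifene, and for MARS1, QARS1, VARS1 and YARS1 with tamoxifen. Of these, AIMP2, TARS1 and VARS1 are given by library and were picked after their values were seen. AIMP2 was at 55.4 and 54.1 CPM with fulvestrant, 49.7 and 52.0 CPM with raloxifene and 57.2 and 62.1 CPM with tamoxifen against 60.8 and 64.0 CPM in complete vehicle libraries. With raloxifene its log2 fold change was -0.30 ± 0.09 and its adjusted p 0.197. TARS1, the threonyl-tRNA synthetase, was at 41.9 and 49.2 CPM with raloxifene against 32.6 and 37.1 CPM in complete vehicle libraries (log2 fold change 0.37 ± 0.13, adjusted p = 0.323). VARS1, the valyl-tRNA synthetase, was at 5.98 and 6.11 CPM with fulvestrant, 5.95 and 6.60 CPM with raloxifene and 7.05 and 6.38 CPM with tamoxifen against 4.45 and 3.67 CPM in complete vehicle libraries. Its log2 fold changes were 0.56 ± 0.27, 0.59 ± 0.27 and 0.71 ± 0.26 (adjusted p = 0.674, 0.491 and 0.654), from 18 to 52 counts per library over the series. All 6 drug libraries lay above both vehicle libraries in VARS1, and the 3 drugs share those vehicle libraries.

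**Figure D4:**
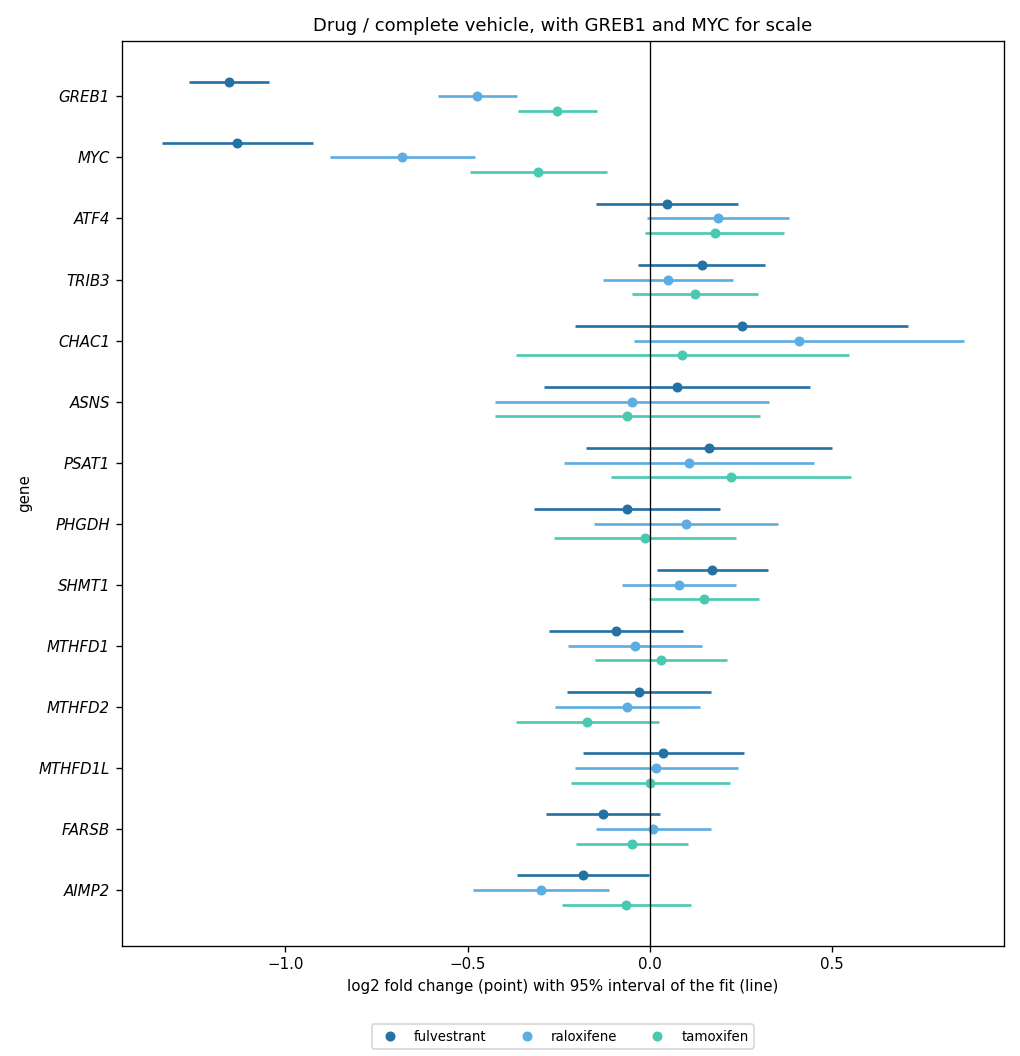
Log2 fold change (point) with the 95% interval of the fit (line) against complete vehicle for fulvestrant, raloxifene and tamoxifen, in GREB1, MYC and 12 of the 40 genes. GREB1 and MYC lie at or below -1.13 with fulvestrant, while 0 of the 12 passed the test with any drug.

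Set against each other at the shared dose and time, the drugs did not differ detectably in any of the 40 genes. Of all genes tested, 0.103% were called for raloxifene against fulvestrant, 0.462% for tamoxifen against fulvestrant and 0.00428% for tamoxifen against raloxifene, and of the 40 genes 0 were called in each. Unadjusted p-values under 0.05 numbered 0, 2 and 2. The 95% interval of the difference lay within 0.5 log2 units on either side of 0 for 35, 36 and 33 of the 40 genes, and within 1 log2 unit for all 40 in each pair. For ATF4 the intervals were -0.05 to 0.33 for raloxifene against fulvestrant, -0.06 to 0.32 for tamoxifen against fulvestrant and -0.19 to 0.18 for tamoxifen against raloxifene. ASNS was at 17.1 and 17.6 CPM with fulvestrant, 14.6 and 18.4 CPM with raloxifene and 14.1 and 17.8 CPM with tamoxifen, against 14.8 and 18.5 CPM in complete vehicle libraries. The bound farthest from 0 over the 3 pairs was -0.75, for tamoxifen against raloxifene in the lowly counted CHAC1, whose interval reached up to 0.11. Outside the 40 genes, STC2, of the other ATF4 targets, was at 510 and 546 CPM with fulvestrant against 719 and 787 CPM in complete vehicle libraries and fell by 0.51 ± 0.07 on the log2 scale (adjusted p = 0.000365), and GLUL, of the other amino acid and folate genes, was at 86.9 and 88.1 CPM with fulvestrant against 117 and 110.0 CPM in complete vehicle libraries (log2 fold change -0.38 ± 0.08, adjusted p = 0.00875).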

How the data were processed

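For 12 PRO-seq libraries of T47D cells, the authors deposited raw counts as whole numbers by Ensembl ID. The submitters' processing notes name genome build hg38 and the tools cutadapt 1.8.1, SAMtools 1.9 and Bowtie2 2.4.4. How reads were counted (tool, gene models, strand, region) was not given in the sources used here. Starvation rests on the descriptions and the design text, since the treatment protocol speaks of complete medium only. Symbols were found for 60463 of 60605 IDs, and IDs without one held 0.281% of counts. Where IDs shared a symbol the one with most counts was kept (1195 left out, 0.0741% of counts).

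The tests were run in edgeR 4.0.16 under R 4.3.3 (filterByExpr, TMM, quasi-likelihood test, the 6 groups as the only term, all 12 libraries), with Benjamini-Hochberg adjustment over 23375 genes in each of 9 comparisons, with a threshold of 0.05. DESeq2 1.42.0 was an alternative. So was the library number (3 or 4) as a block: no label says that it pairs libraries, but deviations of same-numbered libraries from their group means correlated at 0.10 to 0.42 in all 15 pairs of groups, so blocked values are given where they change a call. The script was tested on simulated counts. Intervals and shares cover the spread between libraries or counting error only, since PCR copies cannot be told from molecules. The 2 libraries of each group differed by more than sampling noise (chi-square per gene 1.2 to 2.34). The members and lists were chosen with earlier results of these data known. Full values were given for ATF4, ASNS, PSAT1, PHGDH, CHAC1, TRIB3 and the 12 genes with the smallest adjusted p against a vehicle, and from each other list for up to 3 genes called per comparison. A few genes of those other lists are not reported here.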

Additional observations from a re-analysis of the deposited data

Results flagged for a closer look

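Between drugs at the same dose and time, 3 of the genes described outside the 40 differed by edgeR's quasi-likelihood test, among 24 genes called for raloxifene against fulvestrant and 108 for tamoxifen against fulvestrant. GREB1 was higher with raloxifene than with fulvestrant by 0.68 ± 0.05 on the log2 scale (adjusted p = 1.11e-06), and higher with tamoxifen than with fulvestrant by 0.90 ± 0.05 (adjusted p = 3.24e-09). MYC was higher with tamoxifen than with fulvestrant by 0.83 ± 0.10 (adjusted p = 8.09e-05). STC2, from the list of other ATF4 targets, was higher with tamoxifen than with fulvestrant by 0.44 ± 0.07 (adjusted p = 0.00358). Like GREB1, STC2 was also higher with estradiol than in starved vehicle and lower with fulvestrant than in complete vehicle. Whether ATF4 had a part in this was not tested.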

How the results depend on the processing

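No call among the 40 genes reversed, and 11 of the 20 member calls held under all 10 alternatives of their comparison: 5 of 7 for starved against complete vehicle, 6 of 10 for estradiol-treated starved against complete vehicle, and 0 of 3 for estradiol against starved vehicle. For estradiol against starved vehicle, the members higher numbered 1 and lower 2. These counts became 4 lower with library totals without scaling, 4 higher and 4 lower when only the groups compared were fitted, and 0 higher and 1 lower with DESeq2. Leaving out 1 library at a time gave 0 to 1 higher and 0 to 2 lower. For starved against complete vehicle, 12 instead of 7 were lower when only the groups compared were fitted. For estradiol-treated starved against complete vehicle, 1 instead of 0 was higher with no low-count filter, and 1 when only the groups compared were fitted. With the replicate number as a block, estradiol against starved vehicle gave 4 higher and 4 lower, starved against complete vehicle 12 lower, estradiol-treated starved against complete vehicle 2 higher, and raloxifene against complete vehicle 1 higher; in the other comparisons it changed no call among the 40 genes. The cause of these shifts was not tested.

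Over all genes, the calls numbered 2051 for estradiol against starved vehicle (1082 with DESeq2 to 3004 with the block), 4386 for starved against complete vehicle (2301 to 5687, likewise) and 3788 for estradiol-treated starved against complete vehicle (2029 to 5026, likewise). They numbered 270 for fulvestrant (143 without fulvestrant library 3 to 498 with the block), 133 for raloxifene (29 without complete vehicle library 3 to 490 with the block) and 12 for tamoxifen (0 without complete vehicle library 3 to 172 with the block). Between drugs they numbered 24 for raloxifene against fulvestrant (14 without fulvestrant library 3 to 168), 108 for tamoxifen against fulvestrant (48, likewise, to 242 with the block) and 1 for tamoxifen against raloxifene (0 to 164). The 168 and the 164 came without raloxifene library 3, which left library 4 with 3682311 counts. With a library left out, the lone library of its group is assumed to vary like the other groups. Counts of 18 to 59 per library limit what could be seen in VARS1, CHAC1 and CTH.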
